A study of Mus musculus with 12 samples.

Results

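Expression of 10 genes of phospholipid synthesis and remodelling was followed in adipocytes that carried wild-type or mutant PPARγ, the nuclear receptor that drives adipocyte differentiation. The genes were taken by symbol from the count table, which lists 55573 genes, and all 10 were found in it. They are the LPCAT and AGPAT type acyltransferases Lpcat1, Lpcat2, Lpcat4, Agpat4 and Agpat5, the membrane-bound O-acyltransferases (MBOAT) Lpcat3, Mboat1, Mboat2 and Mboat7, and Cds1, which is a CDP-diacylglycerol synthase and not an acyltransferase. The cells came from the stromal vascular fraction of subcutaneous fat of C57BL/6 mice and were differentiated in culture with insulin, triiodothyronine, IBMX, dexamethasone and indomethacin for 4 days, kept on insulin and triiodothyronine, and harvested on day 8. Donors carried 2 wild-type Pparg alleles (WT), 2 alleles with T166A (TA), whose alanine cannot be phosphorylated, or 2 with T166D (TD), whose aspartate stands for a phosphorylated threonine. Each genotype had 4 libraries. The substitution was made in the germline, so that stromal cells and any other cells in the culture carried it as well as the adipocytes. The labels give no age of the mice and do not say whether libraries of a genotype came from separate mice or cultures, and p-values then measure only the spread between these libraries, which may be technical.

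Membrane phospholipids are first made with the fatty acids at hand and are then edited. Phospholipases A remove a fatty acid, and lysophospholipid acyltransferases put back another, a cycle that sets how saturated or unsaturated a membrane is. LPCAT3 places polyunsaturated fatty acids in phosphatidylcholine, LPCAT1 places saturated ones, and MBOAT7 returns arachidonic acid to phosphatidylinositol. AGPAT enzymes act earlier, on lysophosphatidic acid, and CDS1 turns the phosphatidic acid so made into CDP-diacylglycerol, the precursor of phosphatidylinositol. In fat cells the same early steps also feed triglyceride synthesis and the phospholipid coat of lipid droplets.

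Lpcat3, the most abundant of the 10, was 0.751 times the WT level in TD and 0.721 times the TA level. Lpcat1 and Agpat4 rose 1.49-fold and 1.41-fold in TD against WT. Cds1 rose in both mutants, 3.74-fold in TA and 2.6-fold in TD. The other 6 genes were not called in any comparison, and 1 of them, Mboat1, had too few reads to be tested. Of the 9 genes tested, 4 were called between TD and WT (3 higher and 1 lower in TD), against a background of 29.2% of all 15117 genes tested (15.1% higher and 14.2% lower). Between TA and WT 1 of 9 was called, and it was higher in TA, where the background was 11.1% (6.72% higher and 4.41% lower). Between TD and TA 1 of 9 was called and was lower in TD, where the background was 16.7% (7.33% higher and 9.37% lower). A call was an adjusted p under 0.05 in edgeR's quasi-likelihood test, with Benjamini-Hochberg adjustment over all genes tested. The comparisons of TD and of TA with WT share the WT libraries. In RNA from a whole culture, fewer cells of a type and less RNA per cell cannot be told apart.

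The 250 bases before the RefSeq start of Lpcat3 (chr6:124662854-124663103, plus strand) and of Cds1 (chr5:101764880-101765129, plus strand) are shown because these 2 genes had the strongest evidence of a difference over the 3 genotypes. They are printed 5′ to 3′ from the RefSeq table of GRCm38.p6, and the capitals mark CCAAT in Lpcat3 and TGACGTCA, the full cAMP response element, in Cds1.
Lpcat3: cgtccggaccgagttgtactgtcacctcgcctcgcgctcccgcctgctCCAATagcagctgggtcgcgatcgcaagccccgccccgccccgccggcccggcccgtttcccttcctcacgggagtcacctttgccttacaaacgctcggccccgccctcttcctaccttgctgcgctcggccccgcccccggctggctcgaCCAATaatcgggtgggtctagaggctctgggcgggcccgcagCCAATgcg
Cds1: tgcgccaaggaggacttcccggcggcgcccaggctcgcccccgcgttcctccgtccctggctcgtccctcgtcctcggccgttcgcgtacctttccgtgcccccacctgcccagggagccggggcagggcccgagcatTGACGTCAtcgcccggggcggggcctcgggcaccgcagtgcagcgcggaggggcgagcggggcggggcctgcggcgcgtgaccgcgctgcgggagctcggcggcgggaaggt
Guanine and cytosine made up 70.0% of the Lpcat3 window and 77.6% of the Cds1 window, and the median over 32851 windows of that length was 52.4%. The Lpcat3 window holds CCAAT 3 times, beginning 202, 50 and 8 bases before the start. GENCODE draws the gene from chr6:124663027, so the matches at 50 and 8 bases lie inside it and the one at 202 bases lies before it. Of all windows, 33.8% hold CCAAT on either strand. The Cds1 window holds TGACGTCA once, beginning 112 bases before the start, a sequence found in 1.55% of all windows. AGGTCA, the repeat unit of PPAR response elements, is in none of the 9 windows with a RefSeq entry and in 14.0% of all windows, both strands counted. CACGTG, the core of an E-box, is in none of the 9 windows and in 6.02% of all. These are matches of letters in a short window, and they say nothing of a factor's binding or of sites elsewhere. The shares of all windows were not matched for guanine and cytosine content, and TGACGTCA and CCAAT were chosen after the data were seen.

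The levels of the 10 genes spanned a wide range. Scaled by the length of their merged exons, mean CPM (a gene's counts scaled to a common normalised library size) per kilobase over the 12 libraries was 67.9 for Lpcat3, 7.40 for Mboat7, 6.95 for Agpat4, 3.21 for Agpat5 and 2.07 for Lpcat1. It was 0.902 for Lpcat4, 0.774 for Cds1, 0.449 for Lpcat2, 0.118 for Mboat1 and 0.101 for Mboat2. The lowest Lpcat3 library stood at 52.2 CPM per kilobase and the highest library of any other member, Agpat4, at 9.54, so Lpcat3 was above every other member in each library. Mboat7 (6.82 to 8.26 CPM per kilobase) and Agpat4 (5.25 to 9.54) overlapped, as did Agpat5 (2.60 to 3.81) and Lpcat1 (1.59 to 2.73). Lpcat4, Cds1 and Lpcat2 overlapped as well, and so did Mboat1 and Mboat2, whose order turned when the length of the principal transcript was used. By that length the means of Mboat7 and Agpat4 stood further apart, at 21.5 and 9.81 CPM per kilobase.

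**Figure D1:**
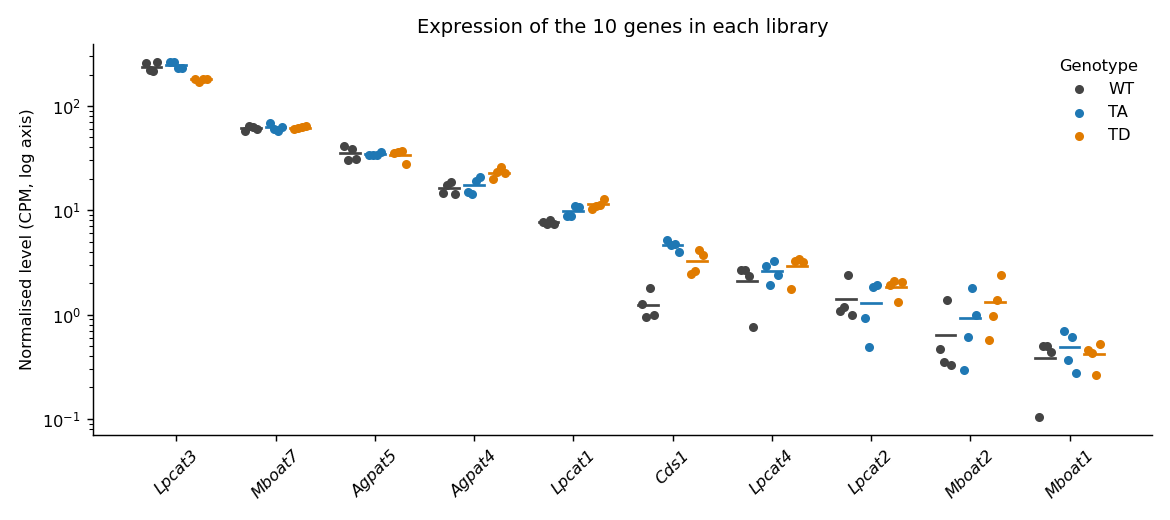
Level of each of the 10 genes in the 12 libraries, in CPM on a log axis, with 1 point per library and a bar at the mean of each genotype (WT grey, TA blue, TD orange). Lpcat3 lies between 171 and 265 CPM with all 4 TD points lowest, and Cds1 has all 4 WT points lowest.

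Library totals ran from 16553324 to 20324286 counts, with the 4 WT libraries above those of both mutants. The adipocyte markers were high in each culture, with Adipoq at 729 ± 71.1 CPM in WT, 803 ± 65.9 in TA and 600 ± 40.0 in TD (SD, n = 4). Of 12 adipocyte markers 10 fell and none rose in TD against WT, with a median log2 fold change of -0.46, and against TA 8 were lower in TD and 1 was higher. Their summed level was 24100 to 27300 CPM in WT, 22100 to 29100 in TA and 16600 to 19000 in TD, with no marker at 0. Pparg itself was 354 ± 19.9 CPM in WT, 374 ± 46.1 in TA and 237 ± 24.2 in TD, and a count per gene cannot show the point mutation. Of the 11 preadipocyte and fibroblast markers tested, 9 rose in TD and 7 in TA against WT and none fell, and their summed level was 10200 to 13600 CPM in WT, 11500 to 20600 in TA and 17700 to 25900 in TD, with Dlk1 at 0 in WT and TD. Endothelial markers rose for 7 of 8 in TD and 4 of 8 in TA (28.3 to 60.7 CPM summed in WT, 52.5 to 97.0 in TA, 109 to 139 in TD, none at 0). Skeletal muscle markers rose for 11 of 11 tested in TD and 6 of 11 in TA (5.40 to 13.8 CPM summed in WT, 20.8 to 83.6 in TA, 20.4 to 317 in TD), with Myog and Myod1 at 0 in WT. Macrophage and leukocyte markers rose for 2 of 12 in TD and 0 of 12 in TA against WT (290 to 857 CPM summed in WT, 148 to 631 in TA, 689 to 930 in TD), with Cd3e at 0 in WT and TA. Against WT, 2 of 4 epithelial, 2 of 6 Schwann and nerve and 2 of 8 cell division markers rose in TD, and none of these in TA. The adjusted p of edgeR's test was used for these counts.

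Among the MBOAT enzymes, Lpcat3 (ENSMUSG00000004270, chr6:124663027-124704418 in GRCm38, plus strand) was the member with a lower level in TD. Its level was 257, 219, 214 and 264 CPM in the WT libraries, 262, 265, 233 and 233 in TA, and 183, 171, 180 and 183 in TD. The 4 TD libraries were the lowest of all 12, and WT and TA overlapped. Such a lack of overlap was found for 32.2% of all genes tested between TD and WT and for 19.9% between TD and TA. The mean was 238 ± 25.7 CPM in WT, 248 ± 17.4 in TA and 179 ± 5.76 in TD (SD, n = 4). The log2 fold change was -0.41 (SE 0.0812, adjusted p = 0.00146, edgeR) for TD against WT and -0.47 (SE 0.0812, adjusted p = 0.00108) for TD against TA. For TA against WT it was 0.059, with a 95% interval of -0.11 to 0.23 and an adjusted p of 0.713 in edgeR. Of Lpcat3's exon length 10.2% is shared with Emg1, a ribosome assembly gene on the opposite strand, and whether counting used the strand is not given in the sources used here. Emg1 had a mean count of 663.8 against 4045.8 for Lpcat3, and its log2 fold change in TD against WT was -0.15 (edgeR adjusted p = 0.209).

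Mboat7 (chr7:3677789-3693523, minus strand) did not differ detectably between genotypes. Its level was 56.9, 63.9, 62.3 and 60.4 CPM in WT, 68.8, 59.9, 57.6 and 63.1 in TA, and 60.1, 61.7, 62.3 and 63.9 in TD. The 3 genotypes overlapped. The 95% interval of the log2 difference was -0.12 to 0.17 for TD against WT, -0.11 to 0.18 for TA against WT and -0.16 to 0.14 for TD against TA. Its exons share 277 bases with Tsen34, a tRNA splicing gene on the opposite strand with a mean count of 1954.3 against 1127.2 for Mboat7, so its reads may in part belong to that gene. Mboat2 (chr12:24830879-24964397, plus strand), which acylates lysophosphatidylethanolamine and lysophosphatidylcholine, was near the limit of detection with 5 to 41 counts per library. Its level was 0.329 to 1.39 CPM in WT, 0.292 to 1.78 in TA and 0.568 to 2.40 in TD, and the log2 fold change of TD against WT was 1.05 with an interval of -0.15 to 2.25 (edgeR adjusted p = 0.178). Mboat1 (chr13:30136489-30246717, plus strand), known for lysophosphatidylserine and lysophosphatidylethanolamine, had 2 to 12 counts per library and did not pass the filter on low counts. In a fit without that filter its log2 fold change was 0.12 for TD against WT (interval -1.05 to 1.29) and 0.33 for TA against WT (interval -0.82 to 1.49). These values neither show nor exclude a difference within those bounds.

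Lpcat1 (ENSMUSG00000021608, chr13:73467197-73516422, plus strand), best known for the dipalmitoyl lipid of lung surfactant, was higher in TD. Its level was 7.68, 7.40, 8.13 and 7.34 CPM in WT, 8.77, 8.79, 11.0 and 10.7 in TA, and 10.3, 11.1, 11.3 and 12.7 in TD. Each library of either mutant lay above each WT library, and TA and TD overlapped. Against WT the log2 fold change was 0.57 (SE 0.119, adjusted p = 0.00214, edgeR) in TD and 0.36 (SE 0.12) in TA, which missed the threshold at an adjusted p of 0.0634. Over all genes tested, 32.2% did not overlap between TD and WT and 13.6% between TA and WT. Between TD and TA the log2 difference was 0.21, with an interval of -0.04 to 0.46 (edgeR adjusted p = 0.243).

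Agpat4 (ENSMUSG00000023827, chr17:12118704-12219645, plus strand), which acylates lysophosphatidic acid, had the same order of means. Its level was 14.6, 17.3, 18.8 and 14.2 CPM in WT, 15.0, 14.3, 19.2 and 20.9 in TA, and 19.9, 23.1, 25.8 and 22.5 in TD. Each TD library exceeded each WT library, whereas 1 TA library exceeded the lowest TD library and WT and TA overlapped. The log2 fold change was 0.49 for TD against WT (SE 0.133, adjusted p = 0.0112, edgeR). For TD against TA it was 0.39 (interval 0.11 to 0.67) with an adjusted p of 0.0536 in edgeR, and it passed the threshold in 8 of 19 alternative settings. For TA against WT it was 0.099 (interval -0.19 to 0.38, edgeR adjusted p = 0.71).

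Agpat5 (chr8:18846277-18891361, plus strand), a further lysophosphatidic acid acyltransferase, did not differ detectably. Its level was 30.0 to 41.0 CPM in WT, 34.0 to 36.2 in TA and 28.0 to 36.7 in TD, and each of its 3 log2 differences lay between -0.27 and 0.21 by the 95% intervals. Lpcat2 (chr8:92855339-92919279, plus strand), which also makes platelet-activating factor in inflammatory cells, stood at 0.986 to 2.38 CPM in WT, 0.492 to 1.94 in TA and 1.33 to 2.10 in TD. Lpcat4 (chr2:112239468-112247111, plus strand), which prefers oleic acid, stood at 0.767 to 2.68 CPM in WT, 1.91 to 3.28 in TA and 1.76 to 3.41 in TD. Both genes overlapped between all genotypes. For TD against WT the log2 fold change was 0.39 for Lpcat2 (interval -0.42 to 1.20, edgeR adjusted p = 0.486) and 0.46 for Lpcat4 (interval -0.23 to 1.14, edgeR adjusted p = 0.31), so changes of the size seen for Lpcat1 lie inside both intervals.

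Cds1 (ENSMUSG00000029330, chr5:101765130-101823858, plus strand) was the member with the largest fold change. Its level was 1.25, 0.943, 1.78 and 0.986 CPM in WT, 5.21, 4.67, 4.79 and 4.0 in TA, and 2.44, 2.64, 4.20 and 3.69 in TD. These levels rest on 18 to 36 counts per library in WT, 72 to 89 in TA and 43 to 79 in TD. Each mutant library exceeded each WT library, and the highest TD library lay above the lowest TA library. The log2 fold change was 1.90 for TA against WT (SE 0.248, adjusted p = 9.87e-05, edgeR) and 1.38 for TD against WT (SE 0.251, adjusted p = 0.000831). For TD against TA it was -0.52 (interval -1.01 to -0.04), with an unadjusted p of 0.036 and an adjusted p of 0.13 in edgeR. Cds2, its closest paralog and named here outside the rule for named genes, had log2 fold changes of 0.082 for TD against WT (edgeR adjusted p = 0.451), -0.056 for TA against WT (edgeR adjusted p = 0.71) and 0.14 for TD against TA (edgeR adjusted p = 0.233).

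**Figure D2:**
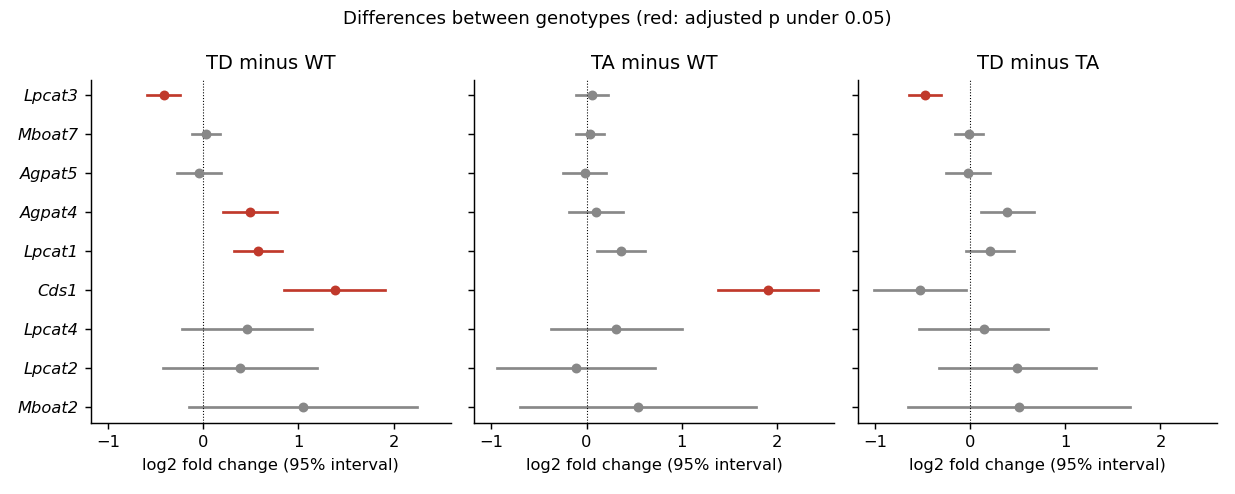
Log2 fold change of the 9 tested genes for TD minus WT, TA minus WT and TD minus TA, with 1 point per gene and a bar for its 95% interval. Points in red passed an adjusted p of 0.05 in edgeR, which are 4 genes between TD and WT, Cds1 between TA and WT and Lpcat3 between TD and TA, and the widest intervals belong to Mboat2.

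The called members were also set against marker genes that moved with the genotypes, as log2 CPM of the gene minus the mean log2 CPM of the markers in the same library. Lpcat3 minus the 12 adipocyte markers was -2.28, -2.33, -2.32 and -2.20 in WT, -2.02, -2.26, -1.96 and -2.36 in TA, and -2.26, -2.33, -2.16 and -2.01 in TD. The 3 genotypes overlapped, and the difference of TD from WT was 0.0905 (exact two-sided permutation p = 0.286) and of TD from TA -0.0399 (exact permutation p = 0.771). With 4 libraries a group, no difference was detected between the fall of Lpcat3 and the mean change of the adipocyte markers. These 12 markers, which include Pparg, moved unevenly. Their log2 fold changes ran from -0.97 (Cidec) to -0.27 (Lep) in TD against WT. For TD against TA they ran from -1.47 (Cidec) to 0.72 (Lep). Agpat4 minus the 11 preadipocyte and fibroblast markers was -2.84, -2.90, -2.68 and -2.96 in WT, -3.74, -3.21, -3.64 and -3.20 in TA, and -3.33, -3.04, -3.29 and -3.49 in TD. Against these markers Agpat4 was lower in each mutant library than in each WT library, by -0.442 in TD and -0.603 in TA, and Lpcat1 differed by -0.371 in TD (exact permutation p = 0.0571) and -0.342 in TA (exact permutation p = 0.0857). Cds1 minus the same markers was -6.28, -6.94, -6.00 and -6.66 in WT, -5.25, -4.79, -5.62 and -5.55 in TA, and -6.30, -6.11, -5.87 and -6.06 in TD. On this scale each TA library lay above each WT and each TD library, with differences of 1.17 for TA from WT and -0.78 for TD from TA, whereas TD and WT overlapped with a difference of 0.386 (exact permutation p = 0.2). The 11 markers did not move together. In TA against WT their log2 fold changes ran from -0.025 (Pdgfrb) to 1.85 (Pi16), with a median of 0.54, and that of Cds1 was 1.90. In TD against WT they ran from 0.18 (Thy1) to 1.61 (Cd34), with a median of 0.95. The log2 fold changes of Agpat4 (0.49), Lpcat1 (0.57) and Cds1 (1.38) in TD against WT lay within that range. Cds1 was not set against endothelial markers. The smallest p that 4 against 4 libraries allow is 0.0286, which the Agpat4 differences of TD and TA from WT and both Cds1 differences with TA reached, and after adjustment over the 12 tests each of these was 0.0858. The part of the other cell types in the changes of Lpcat1, Agpat4 and Cds1 was not tested beyond these values.

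**Figure D3:**
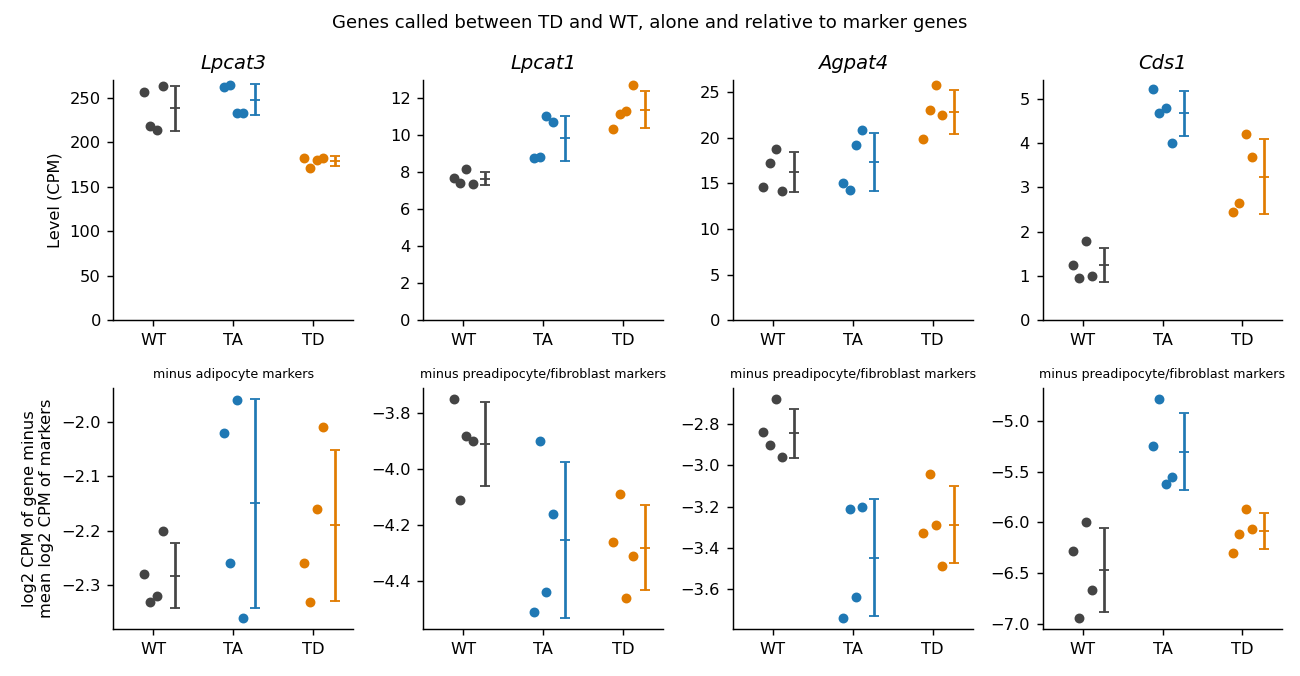
Upper row, level in CPM of Lpcat3, Lpcat1, Agpat4 and Cds1 in each library, on axes that start at 0. Lower row, log2 CPM of the same gene minus the mean log2 CPM of adipocyte markers (Lpcat3) or of preadipocyte and fibroblast markers (the other three), with points for libraries and bars for mean ± SD of 4. Lpcat3 is lowest in TD above and overlaps between genotypes below, and for Cds1 TA and TD overlap above, while the 4 TA libraries are the highest below.

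The called changes among other acyltransferases of the AGPAT type in TD against WT were falls. Of 12 tested, 4 fell and none rose in TD against WT (median log2 fold change -0.22, against 0.011 over all genes tested). Of the 5 members of this type, 2 rose and none fell (median 0.46). The shares over all genes tested were 15.1% higher and 14.2% lower in TD. Members and lists were chosen with earlier results of these data known, so a difference between these counts was not tested. The named fall was that of Gnpat, the first enzyme of ether lipid synthesis in peroxisomes, from 378 ± 35.6 to 250 ± 10.7 CPM (log2 fold change -0.60, edgeR adjusted p = 0.000358). Between TD and TA 6 of the 12 were lower in TD and none higher, led by Gpat3, a glycerol-3-phosphate acyltransferase of triglyceride synthesis, at 46.0 ± 2.90 CPM in TD and 80.9 ± 9.92 in TA. Gpat3 was also the largest of 3 rises in TA against WT (54.3 ± 13.1 CPM in WT, edgeR adjusted p = 0.0124), beside 1 fall, that of Agpat1 from 70.1 ± 5.67 to 58.1 ± 6.16 CPM. Of 5 other MBOAT enzymes tested, 2 fell in TD against WT and none rose. They were led by Dgat1, which makes triglyceride, from 220 ± 18.6 to 159 ± 8.31 CPM (log2 fold change -0.47, edgeR adjusted p = 0.000675). Porcn, which acylates Wnt proteins, was the called gene between TD and TA (70.2 ± 4.38 against 122 ± 28.7 CPM, edgeR adjusted p = 0.00083).

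Phospholipases A and lysophospholipases, which supply the lysophospholipids, moved in both directions. Of 26 tested, 5 rose and 7 fell in TD against WT (median log2 fold change -0.17), 2 rose and 2 fell in TA against WT (median -0.022), and between TD and TA 3 were higher in TD and 7 lower (median -0.064). Pla2g16, a phospholipase A2 of adipocytes, was 355 ± 60.5 CPM in WT, 208 ± 24.4 in TA and 207 ± 27.4 in TD, with log2 fold changes of -0.77 in both mutants (edgeR adjusted p = 0.000659 in TA and 0.000348 in TD). The largest rise in TD was that of the secreted Pla2g2d, from 1.24 ± 0.313 to 3.87 ± 0.349 CPM (edgeR adjusted p = 0.000301). Pla2g7, which degrades platelet-activating factor and is made by macrophages, was 28.0 ± 4.68 CPM in TD and 10.8 ± 9.46 in TA (edgeR adjusted p = 0.0354). In the same comparison 4 of 12 macrophage and leukocyte markers were higher in TD, against 7.33% of all genes tested. The part of macrophages in the Pla2g7 difference was not tested. Abhd3 rose in TA against WT from 10.0 ± 1.43 to 14.7 ± 0.841 CPM, and Plbd1 was lower in TD than in TA, at 10.2 ± 0.280 against 15.6 ± 0.83 CPM.

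Around Cds1, of 12 genes of phosphatidic acid, phosphatidylinositol and cardiolipin synthesis 3 rose and 3 fell in TD against WT (median log2 fold change -0.077), and 1 fell in TA against WT, Lpin2, from 21.3 ± 1.33 to 15.9 ± 0.630 CPM. The largest rise and the largest fall in TD were both of phosphatidate phosphatases. Plpp3 rose from 242 ± 11.9 to 364 ± 30.2 CPM and Lpin1 fell from 753 ± 49.8 to 470 ± 29.9 CPM (edgeR adjusted p = 0.00036 and 0.000546). Between TD and TA 1 was higher, Plpp3, and 2 were lower, led by Crls1, the cardiolipin synthase, at 25.0 ± 3.13 CPM in TD and 37.0 ± 7.33 in TA. Of 13 genes of phosphatidylcholine, phosphatidylethanolamine and phosphatidylserine synthesis, 1 fell in TD against WT, Ptdss2, from 44.4 ± 1.42 to 36.2 ± 2.67 CPM. In TA against WT 2 of the 13 rose and 1 fell, Selenoi, from 50.5 ± 7.74 to 37.8 ± 2.82 CPM. Chpt1, the last enzyme of phosphatidylcholine synthesis, was 306 ± 9.91 CPM in WT, 563 ± 91.7 in TA and 283 ± 21.5 in TD, a log2 fold change of 0.88 for TA against WT (edgeR adjusted p = 3.46e-05) and -0.99 for TD against TA (edgeR adjusted p = 1.18e-05). Of 7 ether lipid genes 2 rose in TA and 2 fell in TD against WT, and 3 were lower in TD than in TA. Tmem86a, a lysoplasmalogenase, was 22.7 ± 2.92 CPM in WT, 44.4 ± 2.90 in TA and 17.5 ± 1.43 in TD, and Far2, which makes fatty alcohols, rose in TA from 3.86 ± 1.42 to 11.2 ± 1.58 CPM (edgeR adjusted p = 0.000309).

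**Figure D4:**
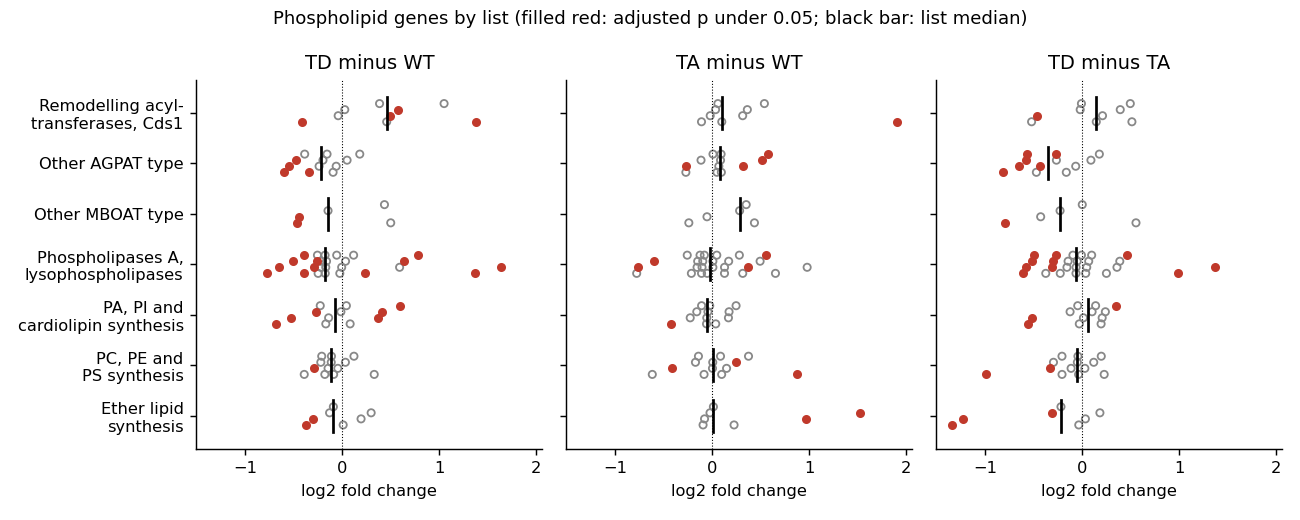
Log2 fold change of each tested gene, by list, for TD minus WT, TA minus WT and TD minus TA, with filled red points for an adjusted p under 0.05 in edgeR and a black bar at the list median. In TD minus WT the other AGPAT type genes have a median of -0.22 with 4 called falls, and the members' list has a median of 0.46 with 3 called rises and 1 fall. Members and lists were chosen with earlier results of these data known.

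By the Pearson correlation of log2 CPM over the 12 libraries, which fall into 3 genotypes that differ in depth and in the marker sums given above, the genes most like Lpcat3 were Mgll (r = 0.98), Letm1 (r = 0.97) and Agpat2 (r = 0.969). Agpat2, the main lysophosphatidic acid acyltransferase of fat cells, was 930 ± 157 CPM in WT, 993 ± 105 in TA and 667 ± 18.7 in TD. Most like Cds1 were Col15a1 (r = 0.967), Sema3c (r = 0.956) and Sox18 (r = 0.954). Col15a1, a basement membrane collagen, was 329 ± 29.7 CPM in WT, 618 ± 37.0 in TA and 494 ± 34.1 in TD. Sox18, a transcription factor of endothelium, was 1.59 ± 0.375, 10.2 ± 2.80 and 7.27 ± 1.75 CPM, respectively, and both it and Cds1 were at low counts in WT. These correlations describe the libraries and carry no test.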

How the data were processed

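RNA of 12 libraries, 4 per genotype, was analysed, with genotypes taken from the sample labels. The authors deposited raw read counts per gene, made with bcl2fastq 2.17.1.14, cutadapt 1.9.1, HISAT2 2.0.1 and HTSeq 0.6.1 on GRCm38 according to the submitters' processing notes. The strand setting of the counting is not given in the sources used here. Genes were kept by edgeR's filterByExpr (minimum count 10, minimum total 15), which left 15117, and 1 quasi-likelihood model with TMM factors (0.957 to 1.04) was fitted to all 12 libraries in edgeR 4.0.16 under R 4.3.3, with two-sided tests and Benjamini-Hochberg adjustment. DESeq2 1.42.0, other scalings and filters, a replicate block and leaving out each library were alternatives. The steps were tested on simulated data. The 2 forms in which the counts were deposited were equal, and replicates differed by more than sampling noise (chi-square per degree of freedom 4.95 to 38.7 over 18 pairs). Positions are from GENCODE M21. All 10 members are named, and from each other list the called gene with the largest rise and the largest fall per comparison, provided that the genotype with more of it averaged 1 CPM or above. The members and lists were chosen with earlier results of these data known, and the scaling by marker genes and the motifs TGACGTCA and CCAAT after the data were seen.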

Additional observations from a re-analysis of the deposited data

Results flagged for a closer look

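A library stood apart from the other 3 of its genotype for 5 of the 10 genes, in a test of the gap to the nearest library against the range of the 4 libraries. The test was run on 30 groups, and chance flags about 1 group in 20. The third WT library was high for Lpcat2, at 2.38 CPM against 0.986 to 1.19 in the other WT libraries, and for Mboat2, at 1.39 CPM against 0.329 to 0.467. In that library the summed markers were 12500 CPM for preadipocytes and fibroblasts, 544 CPM for macrophages and leukocytes and 60.7 CPM for endothelium, the highest endothelial sum of the WT libraries. The part of these cells in the 2 values was not tested. The first WT library was low for Mboat1, at 0.104 CPM or 2 counts. The first TD library was low for Lpcat4, at 1.76 CPM against 3.22 to 3.41 in the other TD libraries. The fourth TA library was high for Agpat5, at 36.2 CPM, where the other TA libraries spanned 34.0 to 34.2 CPM. None of these 5 genes was called between genotypes with all libraries in the fit, and Mboat2 was called between TD and WT without the third WT library.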

How the results depend on the processing

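Of 507 repeats of the 27 fold changes under up to 19 planned settings, 476 kept direction and side of the threshold, 21 turned direction, 10 newly passed and 0 lost their call, and 16 fold changes kept both throughout. On the log2 scale Lpcat3 stayed between -0.46 and -0.34 against WT in TD, and against TA it stayed between -0.50 and -0.39, Lpcat1 between 0.52 and 0.64, Agpat4 between 0.43 and 0.57 and Cds1 between 1.23 and 1.61 for TD against WT, and Cds1 between 1.79 and 2.13 for TA against WT. Members called between TD and TA were 2 instead of 1 with library totals only, without a filter on low counts, with at least 10 counts in every library, with DESeq2 and with the replicate block, the added gene being Agpat4 (edgeR adjusted p = 0.0338, 0.0115 and 0.0479, DESeq2 0.0363, block 0.0362), and 1 to 2 with each library left out (2 without TA 3, TA 4 or TD 1). Between TA and WT they were 1 to 2, with Lpcat1 added without TA 2 (edgeR adjusted p = 0.0485), and between TD and WT 4 to 5, with Mboat2 added without WT 3 (log2 fold change 1.78, edgeR adjusted p = 0.0381). Over all genes, calls between TD and TA ranged from 1422 (without TA 2; 1432 without TD 4 and 1586 without TD 3) to 3526 without TA 3. With library totals only, 64.6% of the calls between TD and WT were higher in TD in place of 51.5%, and 64.7% in place of 43.9% between TD and TA, where 54.3% were higher without a filter, and the median of all genes between TD and TA rose from 0.023 to 0.10.

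Under the planned settings the directions that turned were of fold changes not called. Library totals gave Agpat5 0.027 for TD against WT and 0.056 for TD against TA, and Mboat7 0.070 for TD against TA, which was 0.0016 without a filter and 0.00093 with 10 counts in every library. With a library left out, Agpat5 ranged from -0.11 to 0.046 for TD against WT, -0.090 to 0.060 for TA against WT and -0.059 to 0.061 for TD against TA, Mboat7 from -0.0011 to 0.049, -0.018 to 0.071 and -0.045 to 0.047, Lpcat2 from -0.37 to 0.26 for TA against WT and Agpat4 from -0.011 to 0.18 for TA against WT. Relative to the marker genes, chosen after the data were seen, Lpcat3 turned to 0.0905 for TD against WT, Lpcat1 to -0.371, -0.342 and -0.0295 for TD against WT, TA against WT and TD against TA, and Agpat4 to -0.442 and -0.603 for TD and TA against WT. On that scale Lpcat3 for TD against TA was -0.0399 and Cds1 for TD against WT 0.386, both with overlapping libraries. Cds1 for TA against WT was 1.17 on that scale, against 1.90 without it. Its libraries did not overlap, and its exact permutation p was the smallest that 4 against 4 libraries give, 0.0286. After adjustment over the 12 tests this was 0.0858, which missed the threshold. The cause of these changes was not tested. Replicates with the same number correlated between -0.237 and 0.196 in 12 pairs, 2 of them over 0.1, and 5 of 24 comparisons matched the own number best. No pairing by number was detected, and these values cannot exclude one. The replicate block gave 4246, 1560 and 2488 genes called for TD against WT, TA against WT and TD against TA, with 4, 1 and 2 members. Mboat1, Mboat2, Lpcat2 and Lpcat4 had 2 to 64 counts per library and wide intervals, and the part of depth in those intervals was not tested.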
